A study of Mus musculus with 6 samples.

Results

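The genes described here are the amino acid transporter genes of the mouse solute carrier families Slc1, Slc3, Slc6, Slc7, Slc36, Slc38 and Slc43. They were taken from the count table by symbol, as protein-coding genes named with these 7 family numbers, which gave 62 genes of 22046 protein-coding genes and 54532 genes in all. The rule also takes in Slc6a8, Slc6a6 and Slc43a3, which are known to carry creatine, taurine and nucleobases, and Slc7a6os, which is named for its place beside Slc7a6 and encodes no transporter. RNA with a poly-A tail was sequenced in 3 female and 3 male libraries. The cells are labelled as aortic endothelial cells (MAEC) of wild-type mice, in untreated primary culture in F-12 with serum, heparin and growth factors for endothelium. The study asks about sexual dimorphism of endothelial cells. No age is given, nor which mouse or dish each library is from, so a p-value here reflects only how far these libraries spread, which may be technical.

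Amino acids cross membranes through carriers, and each carrier takes a set of related substrates. Heteromeric exchangers pair a glycoprotein heavy chain with a light chain that forms the pore, while other carriers use gradients of sodium or protons to load the cell. In endothelium these carriers supply arginine for nitric oxide synthesis, glutamine as fuel, and cystine for glutathione. Many of them are also known targets of ATF4, the transcription factor that cells use when amino acids run short.

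The libraries held 17410996 to 22993574 counts. Levels are given in CPM, the count as a share of the TMM-scaled library total, and, where genes are compared with each other, in TPM, which also divides by gene length. Against the label, 10 of 10 endothelial markers stayed under 1 CPM in every library, Cdh5, Tie1, Cldn5 and Robo4 had 0 counts throughout, and the 10 together summed to 1.49 to 2.02 CPM in female libraries and 1.37 to 1.84 CPM in male ones. The 6 fibroblast markers summed to 10334 to 11051 CPM in female libraries and 5641 to 6341 CPM in male ones, with 4 of them called higher in female and none at 0. The 6 smooth muscle markers summed to 115 to 117 CPM in female libraries and 138 to 172 CPM in male ones. Of these, 3 were tested (1 lower) and 2 stayed under 1 CPM in every library. The 6 macrophage and leukocyte markers summed to 12.6 to 18.1 CPM in female libraries and 6.29 to 10.3 CPM in male ones. Of these, 3 were tested (1 higher) and 3 stayed under 1 CPM in every library, with Ptprc and Itgam at 0. Their part in the differences below was not tested, and in such bulk samples fewer cells of a type and less RNA per cell cannot be told apart. Male replicate 3 stood apart, with a correlation of log2 CPM of 0.977 to male replicate 1, where all pairs of female libraries reached at least 0.992. Each fold change is female over male on the log2 scale, with its standard error, from the quasi-likelihood test of edgeR, and a gene was called at a Benjamini-Hochberg adjusted p under 0.05 over all 14932 tested genes.

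Of the 62 genes, 31 had enough counts to be tested, and 8 of these 31 were called. Transcripts of 6 genes were higher in female cultures: the light chains Slc7a8 and Slc7a11, the glutamate transporter Slc1a6, the vesicular transporter Slc6a17, the glutamine carrier Slc38a1 and the creatine transporter Slc6a8. Those of the light chain Slc7a7 and the uniporter Slc43a2 were lower. The remaining 23 tested genes were not called, among them 7 of the 8 with the highest level per length. A missed threshold does not show that their values did not differ.

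The called share of the tested transporter genes was 25.8%, beside 18.3% of all tested genes. By direction, 6 of 31 were higher, where the share of all tested genes was 9.68%, and 2 of 31 were lower, where it was 8.62%. With counts this small, the shares are given as a description. The median log2 fold change was 0.07 over the 31 genes and -0.01 over all tested genes. Female and male libraries did not overlap for 14 of the 31 genes (8 with female above male, 6 below), or 45.2%, beside 35.9% of all tested genes. Without male replicate 3, 9 of 31 were called higher and 9 lower, while over all tested genes the shares were then 16.2% and 16.4%, or 32.7% in either direction.

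Other tools gave other backgrounds. DESeq2 called 6 of 35 tested transporter genes higher and 3 lower, beside 8.54% and 8.45% of the genes it tested. The fit with no filter also called 6 and 3, but of 45 tested transporter genes, beside 6.66% in each direction. With the replicate number as a block, 6 of 31 were higher and 3 lower, beside 10.8% and 9.7%. Limma-voom with quality weights called 9 of 31 higher and 11 lower, beside 22.1% and 22%. At an adjusted p under 0.01, edgeR called 3 of 31 higher and 2 lower, beside 6.03% and 5.59%.

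**Figure D1:**
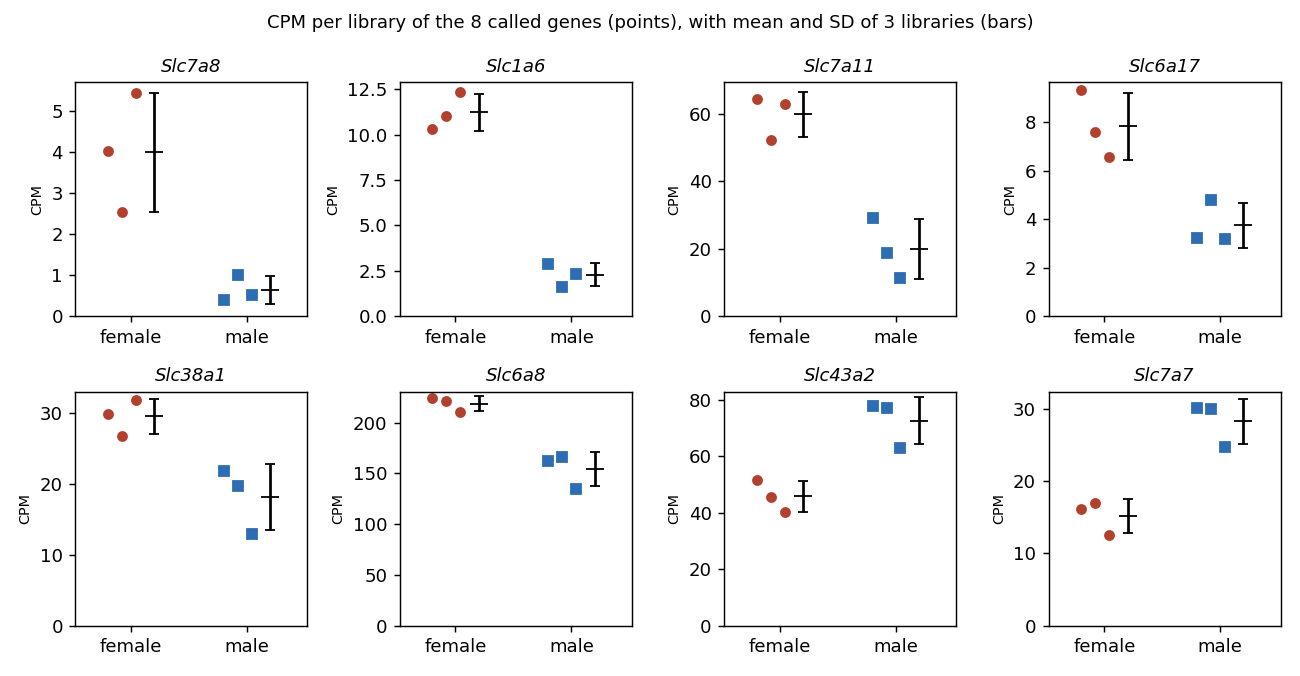
CPM (vertical axes, each from 0) in every library of the 8 called genes, with female libraries as circles, male libraries as squares, and the mean and SD of the 3 libraries of each sex beside them. The female points lie above the male points in the upper row and for Slc38a1 and Slc6a8, and below them for Slc43a2 and Slc7a7, with no overlap in any panel.

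Among the heteromeric exchangers, 1 heavy chain and 5 light chains were tested. The heavy chain Slc3a2 (CD98hc), which carries the light chains to the plasma membrane, stood at 120, 138 and 117 CPM in female libraries and at 97.4, 108 and 123 CPM in male libraries. The ranges overlapped and the gene was not called (log2 fold change 0.20 ± 0.12, edgeR adjusted p = 0.326, and 0.0288 without male replicate 3). The other heavy chain, Slc3a1 (rBAT), had 52 counts over all 6 libraries and was not tested. It overlaps Prepl, which had 4714 counts, on the opposite strand over 26.5% of its exon length.

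Slc7a11 (ENSMUSG00000027737, chromosome 3, 49892526 to 50443614, minus strand) encodes xCT, which imports cystine in exchange for glutamate. It had 64.5, 52.1 and 62.9 CPM in female libraries and 29.3, 18.8 and 11.5 CPM in male libraries. Every female library lay above every male library, and the male libraries differed among themselves by more than the female ones. The log2 fold change was 1.59 ± 0.28, or 3.00-fold (edgeR adjusted p = 0.00301), and it was 1.32 without male replicate 3.

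The promoter of Slc7a11 is shown because it holds the C/EBP-ATF response element core TGATGNAA, the letters through which ATF4 dimers bind, on each strand. The window (chr3:50443564-50443863, minus strand, RefSeq on GRCm38.p6) runs 5′ to 3′ from 250 bases before the annotated start to 50 after it, and capitals mark the core.
Slc7a11: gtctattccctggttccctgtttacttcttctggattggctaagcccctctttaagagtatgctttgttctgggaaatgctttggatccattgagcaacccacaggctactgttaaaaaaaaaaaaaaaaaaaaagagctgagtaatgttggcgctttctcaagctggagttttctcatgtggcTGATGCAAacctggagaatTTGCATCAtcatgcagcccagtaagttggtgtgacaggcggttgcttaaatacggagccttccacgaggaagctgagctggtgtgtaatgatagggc
The forward core begins 66 bases before the start and the reverse one 47 bases before it. The same search was run on all 32851 promoter windows of this length, on both strands, and 3.97% held the core, as did 2.26% of the windows of tested genes. RefSeq windows were matched for 44 of the 62 genes (65 windows), and 5 windows of 4 genes held it, namely Slc7a11, Slc7a7, Slc1a4 and Slc6a21. The Slc7a7 windows among these overlap and share a core. For comparison, 7 of 20 windows of the genes listed below as integrated stress response held it.

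Slc7a7 and Slc1a4 are shown because they hold the same letters, while Slc7a7 was called lower and Slc1a4 was not called. Slc7a7 has several RefSeq windows, and the one printed (chr14:54417895-54418194, minus strand) has a core in the upstream part and another across the start. That window lies wholly upstream of the gene coordinates given below. The window chr14:54417653-54417952 holds the second of these cores again, 243 bases before its own start. The windows chr14:54409423-54409722, chr14:54410154-54410453 and chr14:54417630-54417929 hold none. The Slc1a4 window (chr11:20332664-20332963, minus strand) has a reverse core across the start.
Slc7a7: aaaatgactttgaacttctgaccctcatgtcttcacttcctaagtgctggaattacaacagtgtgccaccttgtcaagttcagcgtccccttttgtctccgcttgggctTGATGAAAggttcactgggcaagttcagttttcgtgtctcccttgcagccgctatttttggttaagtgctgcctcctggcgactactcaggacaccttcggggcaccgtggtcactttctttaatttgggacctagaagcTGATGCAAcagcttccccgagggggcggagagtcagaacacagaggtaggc
Slc1a4: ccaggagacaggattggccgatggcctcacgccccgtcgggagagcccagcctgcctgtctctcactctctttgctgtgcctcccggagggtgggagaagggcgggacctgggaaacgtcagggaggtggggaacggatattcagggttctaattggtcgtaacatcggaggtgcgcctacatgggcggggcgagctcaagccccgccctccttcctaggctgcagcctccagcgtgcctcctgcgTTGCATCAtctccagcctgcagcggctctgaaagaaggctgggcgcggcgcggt
Slc7a7 (ENSMUSG00000000958, chromosome 14, 54369442 to 54417780, minus strand) encodes y+LAT1, which exports arginine and lysine in exchange for neutral amino acids and sodium. It had 16.1, 17 and 12.5 CPM in female libraries and 30.2, 30.1 and 24.7 CPM in male libraries. Female libraries lay below male libraries with no overlap, and the edgeR adjusted p was 0.00331 for a log2 change of -0.90 ± 0.16. The overlap with Oxa1l on the opposite strand could affect this count, since 7.0% of the exon length is shared and it is not known whether strand was used in counting. Oxa1l had 5066 counts in all, against 2687 for Slc7a7. Slc1a4 (ASCT1), an exchanger of alanine, serine and cysteine, had 49.1, 42.2 and 49.3 CPM in female libraries and 32.6, 40.3 and 35.4 CPM in male libraries. The sexes did not overlap there either, but the gene was not called (0.37 ± 0.13, edgeR adjusted p = 0.0726, and 0.024 without male replicate 3).

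The antioxidant response element core TGACNNNGC and the E-box CACGTG, bound by NRF2 and by the MYC and MiT factors, were searched in the same way. Of all windows, 12.4% held the antioxidant core and 7.15% the E-box. Among the transporter genes they were found in 11 and 9 of the 65 windows, and of the called genes only Slc1a6 had either, an E-box 32 bases before the start. The Slc7a11 window holds neither set of letters, which says nothing of sites outside it. Slc38a1 and Slc6a8 were not matched to a window.

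Slc7a8 (ENSMUSG00000022180, chromosome 14, 54722209 to 54781946, minus strand) encodes LAT2, an exchanger of small and large neutral amino acids. It had 4.02, 2.53 and 5.42 CPM in female libraries and 0.387, 1.02 and 0.512 CPM in male libraries. The groups did not overlap, and the log2 fold change was 2.62 ± 0.44 (edgeR adjusted p = 0.00249), on 300 counts in all. It was 1.89 with limma-voom, where that of Slc1a6 was 2.64, and 2.35 without male replicate 1, where that of Slc1a6 was 2.51, so the order of these genes by fold change depends on the fit. It lies 304 kb from Slc7a7 on the same strand, with 16 protein-coding genes between them, and these neighbours moved in opposite directions.

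Slc7a5 and Slc7a6 were tested and not called. Slc7a5 (LAT1), the main importer of leucine and other large neutral amino acids in growing cells, had 57.0, 61.7 and 52.3 CPM in female libraries and 69.3, 63.2 and 56.8 CPM in male libraries (-0.15 ± 0.12, edgeR adjusted p = 0.466). Slc7a6 (y+LAT2) averaged 40.5 ± 2.74 CPM in female libraries and 49.4 ± 3.42 CPM in male ones (SD, n = 3 each), with no overlap and an edgeR adjusted p of 0.12, or 0.0159 without male replicate 3. Slc7a9, Slc7a10, Slc7a12, Slc7a13 and Slc7a15, known from kidney and brain, had 0 to 2 counts over all libraries.

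Within the summed TPM of the 5 detected light chains, Slc7a11 made up 13.2%, 10.8% and 14.2% in female libraries and 5.08%, 3.50% and 2.45% in male libraries. Slc7a7 made up 13.8%, 14.8% and 11.9% in female libraries and 22%, 23.4% and 22.1% in male libraries. The Slc7a7 share was close to that of Slc7a11 in female libraries and exceeded it in every male library. The Slc7a5 share was 45.3 ± 2.32% in female and 44.9 ± 0.741% in male libraries (SD, n = 3 each). Slc7a8 held 2.38 ± 0.976% in female and 0.338 ± 0.171% in male libraries. The 5 light chains together had 0.958 ± 0.0730 times the TPM of Slc3a2 in female libraries and 1.25 ± 0.267 times in male libraries, so light and heavy chain transcripts were close in amount, and the ranges overlapped. These shares are described without a test.

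**Figure D2:**
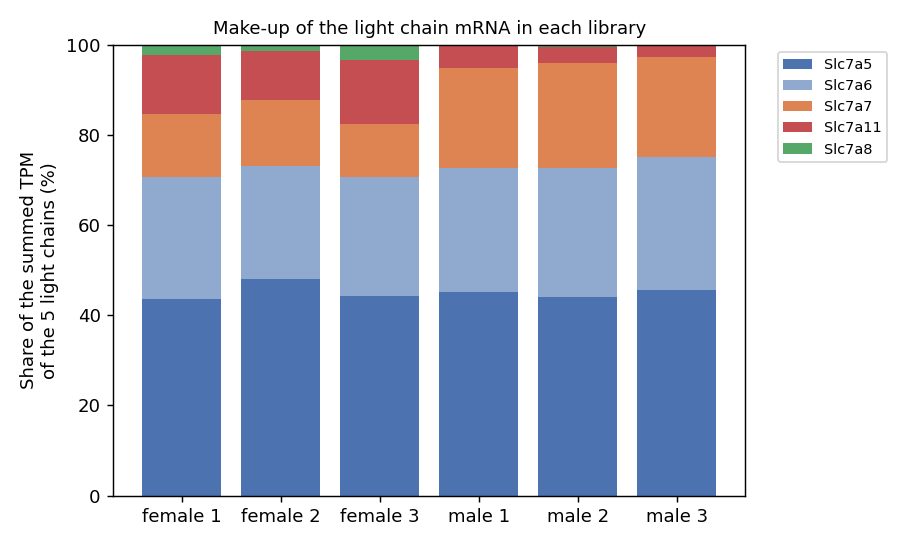
Share of each of the 5 light chain genes in their summed TPM (vertical axis, percent) for each female library on the left and each male library on the right. The Slc7a11 share is 10.8% to 14.2% in female and 2.45% to 5.08% in male libraries, and the Slc7a5 share is 43.7% to 48.0%.

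Cationic amino acid transporters carry arginine and lysine, and Slc7a2 (CAT2) was the most abundant of all 31 tested genes. It had 698, 615 and 599 CPM in female libraries and 902, 759 and 622 CPM in male libraries. The groups overlapped through male replicate 3, and the log2 fold change of -0.25 ± 0.15 was not called (edgeR adjusted p = 0.291, and 0.0039 without male replicate 3). Per length, Slc7a2 reached 236 ± 26.8 TPM in female and 266 ± 72.5 TPM in male libraries. The widely expressed Slc7a1 (CAT1) reached 9.24 ± 1.00 TPM in female and 11.8 ± 2.68 TPM in male libraries.

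Thus Slc7a2 made up 95.2 ± 0.171% of the summed TPM of the cationic transporters in female and 95 ± 0.341% in male libraries (SD, n = 3 each). In CPM, Slc7a1 stood at 33.0, 33.6 and 28.2 in female libraries and 47.6, 44.4 and 36.4 in male libraries, with no overlap. It missed the threshold (-0.44 ± 0.14, edgeR adjusted p = 0.0555) and passed it with DESeq2 (adjusted p = 0.0385), without a filter on low counts (edgeR adjusted p = 0.031), with the replicate number as a block (edgeR adjusted p = 0.0271), with limma-voom (adjusted p = 0.000679) and without male replicate 3 (edgeR adjusted p = 0.00083). Slc7a3 and Slc7a4 averaged under 3 CPM in both sexes and were not called, and Slc7a14 had 0 counts in every library.

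Of the glutamate and aspartate transporters, which remove these amino acids from the medium with sodium, 1 member was well detected. Slc1a6 (EAAT4; ENSMUSG00000005357, chromosome 10, 78780496 to 78814765, plus strand), known above all from cerebellar Purkinje cells, had 10.3, 11 and 12.3 CPM in female libraries and 2.90, 1.63 and 2.33 CPM in male libraries. The groups were far apart, and the log2 fold change was 2.30 ± 0.23, or 4.91-fold (edgeR adjusted p = 0.0001). It supplied 96.4 ± 0.826% of the summed TPM of this class in female and 86.7 ± 5.74% in male libraries. Slc1a3 (GLAST), the glial member, averaged 1.25 ± 0.361 CPM in female libraries and 0.774 ± 0.252 CPM in male ones and was not called. Slc1a1, the member common in epithelia, had 0 counts, and Slc1a2 and Slc1a7 had 35 and 13 counts in all. Of the 7 neural and glial markers, 4 stayed under 1 CPM in every library, and Rbfox3 and Gfap had 0 counts. The 7 genes summed to 26.3 to 29.8 CPM in female libraries and 26.9 to 41.8 CPM in male ones. Only 3 of them were tested, with 1 called higher and 1 lower. Their part in the Slc1a6 difference was not tested.

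Slc1a5 (ASCT2), a glutamine exchanger of proliferating cells, had 68.1, 62.4 and 58.3 CPM in female libraries and 71.6, 85.2 and 77.3 CPM in male libraries. Each female value lay below each male value, and the difference of -0.31 ± 0.12 on the log2 scale was not called (edgeR adjusted p = 0.0989, and 0.0228 without male replicate 3).

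The Slc38 family carries glutamine and other small neutral amino acids with sodium, at the cell surface or the lysosome. Slc38a1 (SNAT1; ENSMUSG00000023169, chromosome 15, 96571418 to 96642913, minus strand) had 29.9, 26.8 and 31.8 CPM in female libraries and 21.8, 19.6 and 12.9 CPM in male libraries. The groups did not overlap, and the log2 fold change was 0.70 ± 0.19 (edgeR adjusted p = 0.031). This call was the least stable of the 8: it was lost without female replicate 1, 2 or 3 or male replicate 2 (edgeR adjusted p = 0.102, 0.0702, 0.135 and 0.0813), and held in 2 of 6 fits that left out a library.

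Slc38a2 (SNAT2), the member known to be induced by amino acid shortage, lies 44.5 kb from Slc38a1 with no protein-coding gene between them. It stood at 359, 320 and 338 CPM in female libraries and 368, 326 and 271 CPM in male libraries. The values interleaved, and the log2 fold change of 0.07 ± 0.13 (edgeR adjusted p = 0.757) changed sign to -0.04 without male replicate 3. Per length, Slc38a1 had 0.0446 ± 0.00318 times the TPM of Slc38a2 in female and 0.0285 ± 0.00364 times in male libraries (SD, n = 3 each).

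Slc38a10, an intracellular member, had 355, 372 and 359 CPM in female libraries and 390, 428 and 437 CPM in male libraries. Its groups did not overlap and it was not called (-0.21 ± 0.10, edgeR adjusted p = 0.209), while limma-voom called it lower (adjusted p = 0.0135). The lysosomal glutamine exporter Slc38a7 averaged 34.9 ± 3.18 CPM in female libraries and 33.9 ± 1.36 CPM in male ones, and the lysosomal arginine sensor Slc38a9 12.5 ± 2.95 CPM in female libraries and 13.7 ± 2.67 CPM in male ones. Neither was called, nor was Slc38a6. Slc38a5 and Slc38a11 had 0 counts in all libraries, and Slc38a3, Slc38a4 and Slc38a8 had 13, 31 and 1.

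The proton-coupled transporters Slc36a1 and Slc36a4, which act at lysosomes and other membranes, were not called, and without male replicate 3 they were called lower (edgeR adjusted p = 0.0276 and 0.00204). Slc36a1 averaged 27.1 ± 2.56 CPM in female libraries and 32.0 ± 4.99 CPM in male ones, and Slc36a4 47.4 ± 2.63 CPM in female libraries and 56.9 ± 13 CPM in male ones. Slc36a2 stayed near 1 CPM or below, at 1.23, 1.01 and 0.683 CPM in female libraries and 0.194, 0.177 and 0.967 CPM in male libraries, with male replicate 3 inside the female range. It was not called, and was called higher without that library (edgeR adjusted p = 0.0209). Limma-voom also called these 3 genes, in the same directions. Slc36a3, beside it on chromosome 11, had 0 counts.

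Among the Slc43 uniporters, Slc43a2 (LAT4; ENSMUSG00000038178, chromosome 11, 75531694 to 75577575, plus strand), which lets leucine, phenylalanine and methionine run down their gradient, had 51.4, 45.4 and 40.4 CPM in female libraries and 77.6, 77.0 and 63.0 CPM in male libraries. Every female library lay below every male library, and the log2 change was -0.67 ± 0.13 at an edgeR adjusted p of 0.00658. An antisense gene, Gm45606, covers 9.18% of its exon length but had 110 counts, against 7334 for Slc43a2. Slc43a1 (LAT3), of the same function, averaged 7.30 ± 0.151 CPM in female libraries and 5.94 ± 0.356 CPM in male ones, with no overlap. It was not called (0.30 ± 0.17, edgeR adjusted p = 0.276), while limma-voom called it higher. Per length, Slc43a2 had 3.57 ± 0.447 times the TPM of Slc43a1 in female and 6.99 ± 1.15 times in male libraries. Slc43a3, a carrier of purine bases, had 101, 94.0 and 107 CPM in female libraries and 96.9, 87.5 and 83.7 CPM in male libraries, and was not called (0.17 ± 0.11, edgeR adjusted p = 0.338).

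The Slc6 family couples sodium and chloride and includes the carriers of neurotransmitters. Of its 19 members here, 15 were not tested. They include Slc6a11, Slc6a12 and Slc6a13 (GABA and betaine), Slc6a18 and Slc6a19 (renal and intestinal neutral amino acids) and the proline transporter Slc6a7, which had 0 counts, and the monoamine carriers Slc6a2, Slc6a3 and Slc6a4, which had 8, 1 and 1 counts in all. The genes of this family that were abundant carry osmolytes and metabolites.

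Slc6a8 (CRT; ENSMUSG00000019558, chromosome X, 73673150 to 73682502, plus strand), the creatine transporter, had 224, 222 and 211 CPM in female libraries and 162, 166 and 135 CPM in male libraries. The sexes did not overlap, and the log2 fold change was 0.50 ± 0.11, or 1.42-fold (edgeR adjusted p = 0.0112). Leaving out female replicate 1 or 2 ended the call, at an edgeR adjusted p of 0.0665 and 0.071. The taurine transporter Slc6a6 had 118, 100 and 102 CPM in female libraries and 159, 143 and 102 CPM in male libraries, with male replicate 3 again among the female values. It was not called (-0.33 ± 0.16, edgeR adjusted p = 0.212), and was called without that library (edgeR adjusted p = 0.000358).

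Slc6a17 (NTT4; ENSMUSG00000027894, chromosome 3, 107467543 to 107518018, minus strand), which loads neutral amino acids into synaptic vesicles, had 9.32, 7.59 and 6.58 CPM in female libraries and 3.24, 4.81 and 3.19 CPM in male libraries. It rose with no overlap (1.06 ± 0.24, edgeR adjusted p = 0.0121), and its adjusted p was 0.0657 when female replicate 1 was left out. The glycine transporter Slc6a9 averaged 8.50 ± 1.86 CPM in female libraries and 11.1 ± 1.46 CPM in male ones and was not called. It shares 27.8% of its exon length with Ccdc24 on the opposite strand, which had 38 counts against 1216 for Slc6a9. B4galt2, also on the opposite strand, had 7237 counts and shares 0.895%. Slc7a6os averaged 26.5 ± 2.94 CPM in female libraries and 28.5 ± 5.91 CPM in male ones and was not called, and its exons do not overlap those of Slc7a6, which ends 2011 bases away.

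**Figure D3:**
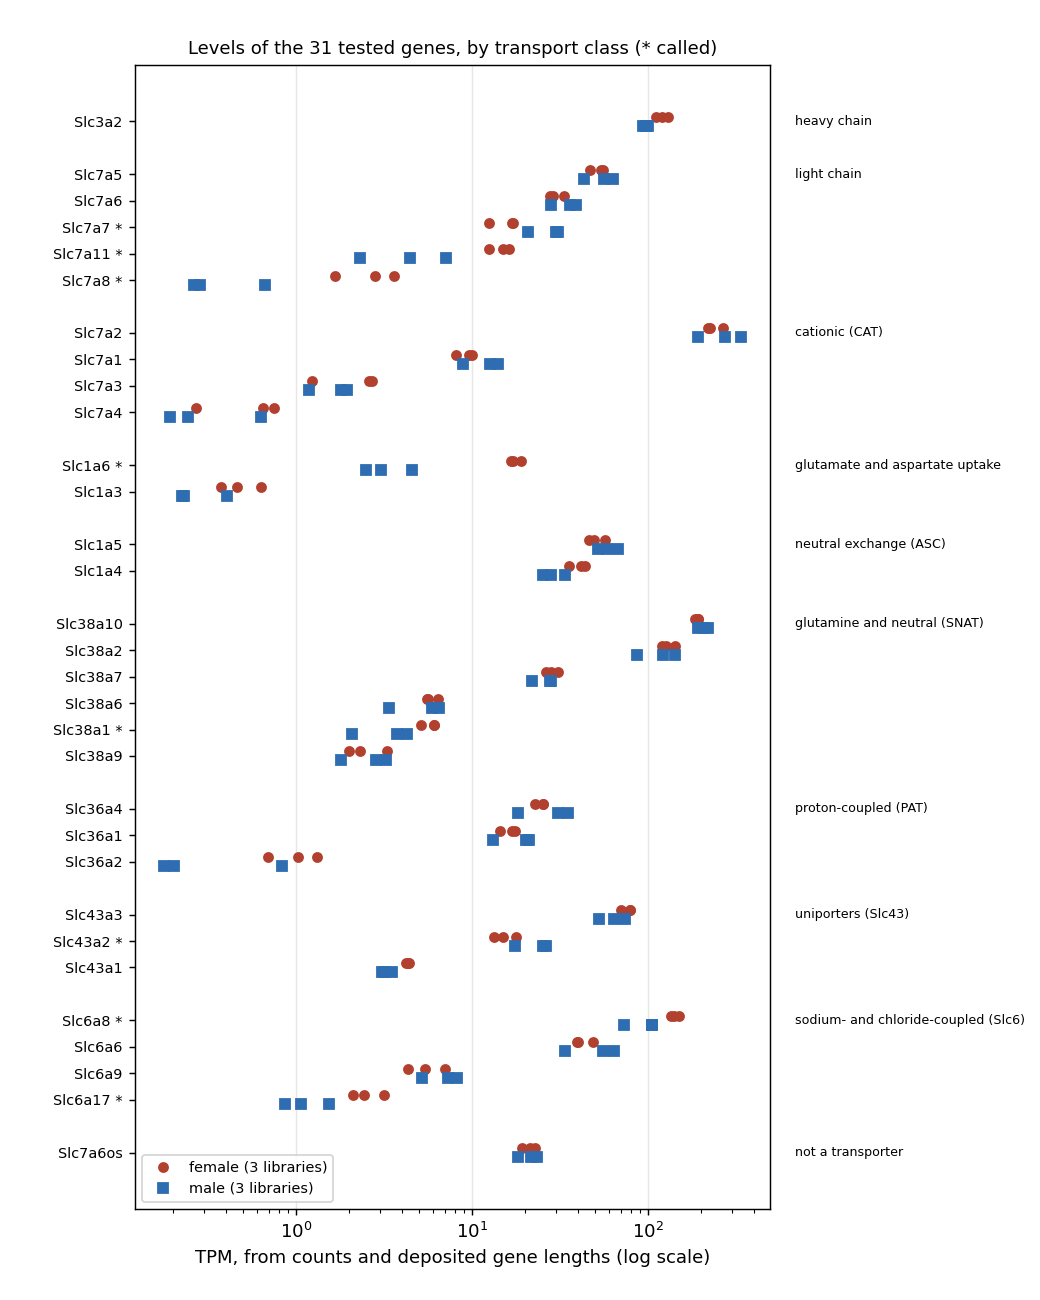
TPM (horizontal log axis) of the 31 tested genes in each of 3 female (circles, upper) and 3 male (squares, lower) libraries, grouped by transport class, with an asterisk for called genes. Slc7a2, Slc38a10, Slc38a2, Slc6a8 and Slc3a2 lie at or near 100 TPM and above, and 3 genes average under 1 TPM.

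Across the classes, levels ran over a wide range, with 19 tested genes at a mean of at least 10 TPM, 9 between 1 and 10, and 3 under 1. Slc7a2 averaged 251 TPM over the 6 libraries, Slc38a10 198, Slc38a2 123, Slc6a8 118 and Slc3a2 108. Slc38a2, Slc6a8 and Slc3a2 are neighbours in that order whose ranges over the 6 libraries overlap. Of the 31 genes not tested, 17 had 0 counts in all 6 libraries, 6 had 1 to 3 and 8 had more, up to 52. A count of 0 allows up to 0.128 to 0.171 CPM in a library, taking 3 counts as the limit, which covers counting error only.

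The summed level of the 62 genes was 2599, 2444 and 2417 CPM in female libraries and 2830, 2658 and 2321 CPM in male libraries. The male libraries spanned the female ones on that sum. Sums by class overlapped as well for the cationic transporters, at 735, 650 and 632 CPM in female libraries and 952, 805 and 661 CPM in male libraries. The glutamate and aspartate class did not overlap, with 11.6, 13.2 and 14.0 CPM in female libraries and 3.87, 3.00 and 3.36 CPM in male libraries, most of it Slc1a6. Sums over the genes have no test here.

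**Figure D4:**
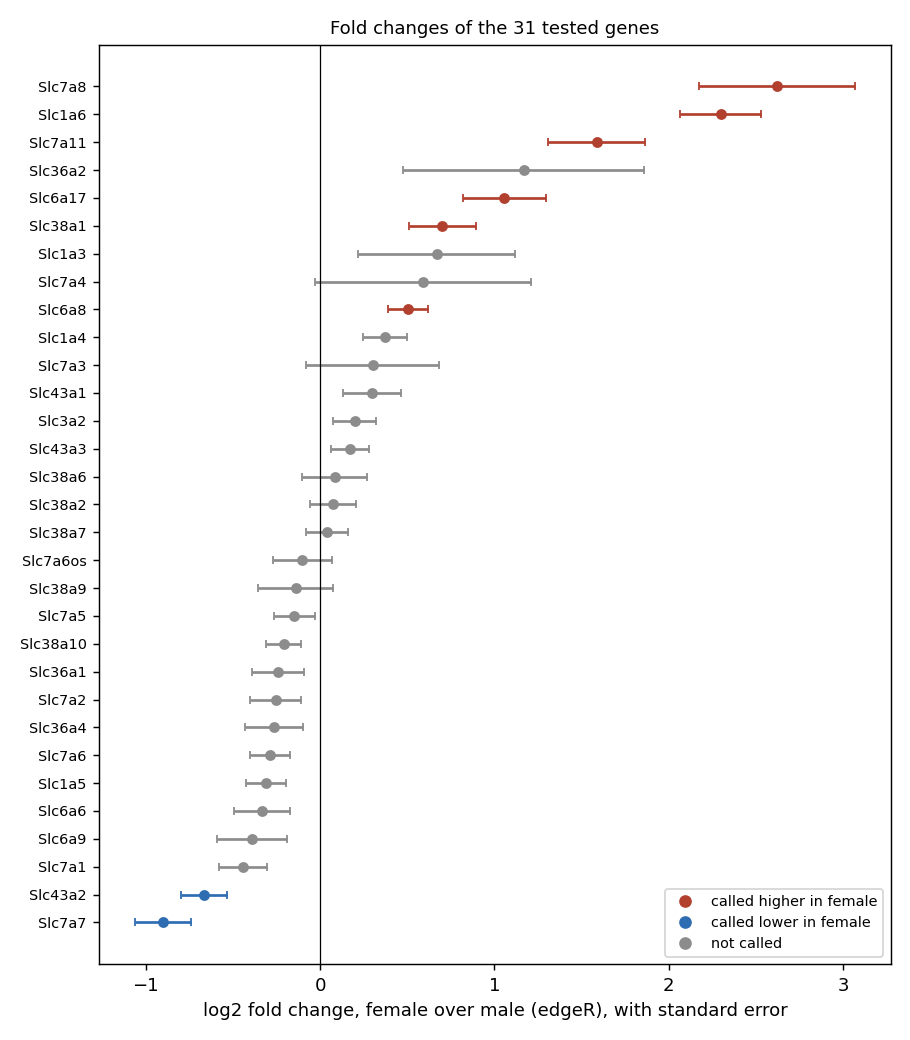
Log2 fold change, female over male, of the 31 tested genes with its standard error (edgeR), sorted, with called genes in colour. Slc7a8, Slc1a6 and Slc7a11 stand at 2.62, 2.30 and 1.59, Slc43a2 and Slc7a7 at -0.67 and -0.90, and most of the others within 0.5 of 0.

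Genes that work beside these carriers were read from lists of related pathways. For every list below, the share of all tested genes to set beside its counts was 9.68% higher and 8.62% lower with all 6 libraries. These shares were 16.2% and 16.4% without male replicate 3. Leaving out any other single library gave 967 to 1319 higher and 903 to 1260 lower, of 15393 to 15482 tested genes. With all 6 libraries, 1446 of 14932 were higher and 1287 lower. The lists are small, and their counts are given as a description without a test. Of carriers and channels of amino acids outside the 7 families, 2 of 14 tested genes were higher in female and 2 lower, and leaving out a library gave 2 higher and 1 to 2 lower. The vesicular glutamate transporter Slc17a6 (VGLUT2) had 19.5, 20.5 and 21.3 CPM in female libraries and 0.0484, 0.309 and 0.341 CPM in male libraries, which is 6.44 ± 0.33 on the log2 scale at an edgeR adjusted p of 1.56e-06. The male values amount to few reads each, so the size of this ratio is loosely set. Slc16a10 (TAT1), a uniporter of aromatic amino acids, had 24.1, 18.1 and 23.4 CPM in female libraries and 5.18, 5.43 and 4.66 CPM in male libraries (2.10 ± 0.17, edgeR adjusted p = 2.29e-05).

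Of genes listed under glutathione synthesis and cystine use, 1 of 15 was higher and 1 lower, with a median log2 fold change of -0.11. The lower call, Nqo1 (edgeR adjusted p = 0.0296), was made again in 2 of 6 fits that left out a library. Leaving out a library gave 1 higher and 0 to 3 lower. Ggt5, which cleaves glutathione conjugates outside the cell, had 137, 132 and 118 CPM in female libraries and 16.4, 17.6 and 14.3 CPM in male libraries (3.00 ± 0.13, edgeR adjusted p = 5.74e-07). The synthesis enzyme gene Gclc averaged 48.2 ± 3.03 CPM in female libraries and 60.1 ± 3.02 CPM in male ones, and was not called (edgeR adjusted p = 0.0716, and 0.0108 without male replicate 3).

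The integrated stress response list, which holds ATF4 and its targets, had 2 of 17 genes higher, 2 lower and 13 not called, with a median of 0.17. Vldlr fell by 1.65 ± 0.14 on the log2 scale, to 53.3, 42.6 and 48.7 CPM in female libraries, against 178, 147 and 130 CPM in male libraries (edgeR adjusted p = 3.75e-05). The other calls, for Chac1 and Ddit3 (higher) and Nupr1 (lower), were each lost in 3 or more of the 6 fits that left out a library. Asparagine synthetase (Asns), a standard ATF4 target, had 30.1, 32.2 and 32.8 CPM in female libraries and 27.6, 30.2 and 33.3 CPM in male libraries, and Atf4 itself averaged 193 ± 9.90 CPM in female libraries and 171 ± 39.8 CPM in male ones. Neither was called. Leaving out a library gave 0 to 7 higher and 1 to 4 lower, with the most without male replicate 3 and 0 higher in the other 5 fits.

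Of aminoacyl-tRNA synthetases, 1 of 20 was higher and 0 lower, and that call, Aars, was lost without each of 5 libraries in turn. Without male replicate 3, 6 were higher and 1 lower. Of serine, glycine and proline synthesis genes, 1 of 14 was higher and 1 lower, and leaving out a library gave 0 to 3 higher and 1 lower. Pycr1, of proline synthesis, fell by 0.82 ± 0.14 on the log2 scale (12.5 ± 1.07 CPM in female libraries and 22.1 ± 2.26 CPM in male ones, edgeR adjusted p = 0.00301). Phgdh, which opens serine synthesis, had 0.82 ± 0.19 (edgeR adjusted p = 0.015), and its call was lost without each of 4 libraries in turn.

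Of the genes of arginine and polyamine metabolism, 3 of 17 were higher and 3 lower. Odc1, the first enzyme of polyamine synthesis, had 398, 436 and 427 CPM in female libraries and 113, 106 and 135 CPM in male libraries (1.83 ± 0.12, edgeR adjusted p = 6.96e-06). Ass1, which makes arginine from citrulline, had 160, 131 and 162 CPM in female libraries and 389, 395 and 545 CPM in male libraries, a change of -1.55 ± 0.16 (edgeR adjusted p = 0.000103). Ddah1, which clears methylated arginines, fell by 0.81 ± 0.16 (edgeR adjusted p = 0.00517). These 3 calls held in all 6 fits that left out a library, while Arg1 and Nos1, which use arginine, were called in 2 of 6 and Nos2, which makes nitric oxide from it, in 0 of 6. Leaving out a library gave 1 to 7 genes higher and 2 to 3 lower, with the most without male replicate 3.

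Glutamine, glutamate and aspartate metabolism had 0 of 14 genes higher and 4 lower, with a median of -0.05, and leaving out a library gave 0 higher and 1 to 5 lower. Cad, of pyrimidine synthesis from glutamine, had 79.5, 77.2 and 71.3 CPM in female libraries and 131, 135 and 101 CPM in male libraries (-0.68 ± 0.13, edgeR adjusted p = 0.00517), and was the only call of the list to hold in all 6 fits that left out a library. Branched-chain amino acid breakdown had 1 of 15 higher and 2 lower, and leaving out a library gave 0 to 4 higher and 1 to 3 lower, with the most without male replicate 3. Bcat1, which starts it, was the only call of that list to hold in all 6 fits and fell by 1.13 ± 0.11 on the log2 scale (43.1 ± 4.50 CPM in female libraries and 94.6 ± 3.69 CPM in male ones, edgeR adjusted p = 9.03e-05).

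Of the amino acid sensing genes upstream of mTORC1, 4 of 31 were higher and 2 lower. Leaving out a library gave 2 to 9 higher and 0 to 6 lower, with the most without male replicate 3, and 2 of the 6 calls, Rragd and Fnip2, held in all 6 such fits. The RagD GTPase gene Rragd had 12.8, 13.2 and 11.1 CPM in female libraries and 6.72, 6.62 and 5.46 CPM in male libraries (0.97 ± 0.17, edgeR adjusted p = 0.00262). Fnip2, whose product binds folliculin at the lysosome, rose by 1.27 ± 0.19 (edgeR adjusted p = 0.00102). Of the proteins known to bring transporters to or from the membrane, 0 of 9 tested were higher and 3 lower. Among them Emb fell by 0.73 ± 0.10 (53.0 ± 2.31 CPM in female libraries and 87.8 ± 1.72 CPM in male ones, edgeR adjusted p = 0.000625), and the ubiquitin ligase gene Nedd4l by 0.56 ± 0.11 (edgeR adjusted p = 0.00609).

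**Figure D5:**
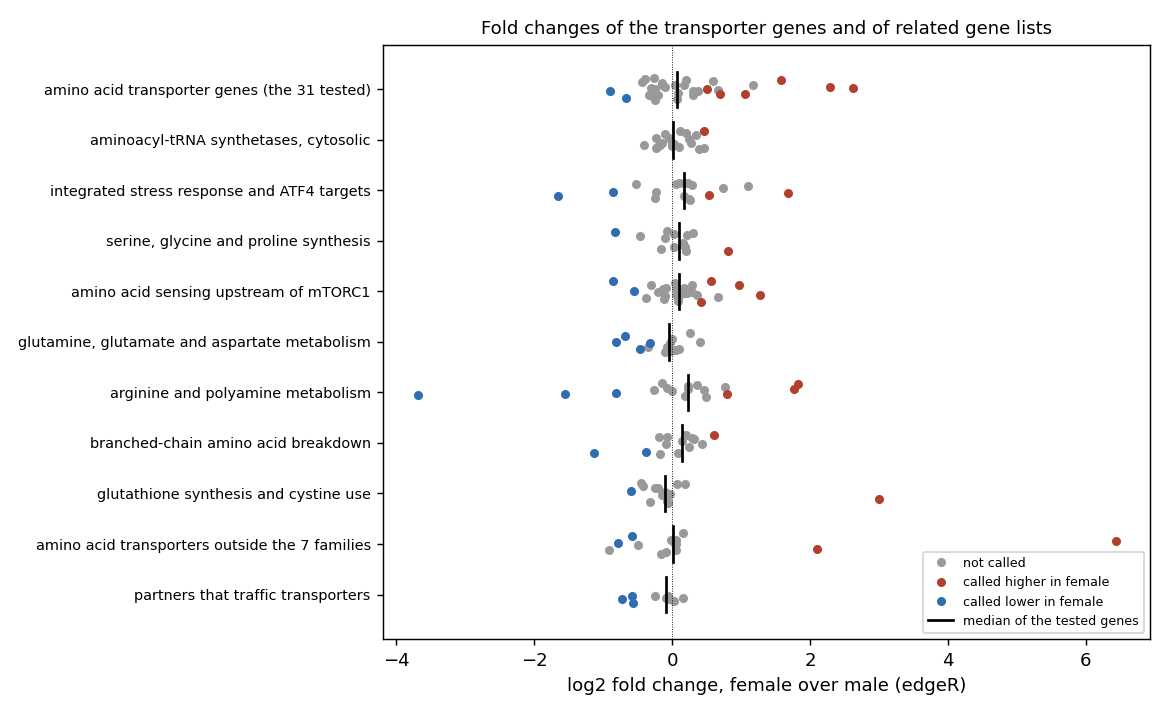
Log2 fold change, female over male (horizontal axis, edgeR), of the 31 tested transporter genes in the top row and of the tested genes of 10 related lists below it, with called genes in colour and the median of each row as a bar. The medians lie between -0.11 and 0.23, and Slc17a6 is the point at 6.44.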

How the data were processed

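Per the submitters' processing notes, the authors used HISAT2 2.0.5 and featureCounts 1.5, and they deposited whole-number counts per gene and library with no normalization. Neither the genome build nor the strandedness of counting is stated in what was used here. All 62 genes were found in GENCODE M21 (GRCm38), 60 at the same coordinates, and 59 had a deposited length equal to their merged exons. The test was edgeR 4.0.16's, run in R 4.3.3 (quasi-likelihood F test, robust dispersions, TMM, filterByExpr with a minimum count of 10), fitted on the whole table. Standard errors are the fold change over the root of the F statistic. TPM was computed from counts and deposited lengths. As alternatives, each library was left out, scaling was by RLE or upper quartile, the tool was DESeq2 1.42.0 or limma 3.58.1 (voom with quality weights), the filter was dropped or set to a mean of 50 counts, replicate numbers entered as a block, and the threshold was 0.01. The genes and lists were chosen with earlier results of these data known. Named are all called genes, the 8 highest uncalled ones per length, and up to 4 genes per list by smallest p. Others, such as Slc7a1, Slc1a4, Asns and Nos2, were chosen after their values were seen. Of the list symbols, 6 were matched by a RefSeq synonym and 2 were not matched. Opposite-strand overlaps were read from GENCODE M21.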

Additional observations from a re-analysis of the deposited data

How the results depend on the processing

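All 8 calls among the transporter genes were made again, in the same direction, with RLE and upper quartile scaling, DESeq2, limma-voom, no filter, the stricter filter and the replicate block, and 5 of them (Slc7a8, Slc7a11, Slc1a6, Slc7a7 and Slc43a2) in each fit that left out a library. Limma-voom called 11 transporter genes lower, and 3305 genes higher and 3288 lower over the whole table. The 12 transporter genes it added were Slc7a2, Slc38a10, Slc3a2, Slc6a6, Slc1a5, Slc7a6, Slc36a4, Slc7a1, Slc36a1, Slc6a9, Slc43a1 and Slc36a2. At an adjusted p under 0.01, 3 transporter genes were higher, and over the whole table there were 900 genes higher and 835 lower. Leaving out each library moved the Slc38a2 value between -0.036 and 0.18. Of the 31 or 32 transporter genes then tested, 3 to 9 were higher and 2 to 9 lower. Over the whole table, 967 to 2511 of 15393 to 15482 tested genes were higher and 903 to 2540 lower. The lowest count of transporter genes higher came without female replicate 1 (3 of 32, beside 989 of 15416 tested genes). The highest counts came without male replicate 3, which is also where Slc38a2 turned negative. The cause was not tested. With the stricter filter, 27 of the genes were tested and their median was -0.10. The labels do not say that a replicate number marks a shared day or batch, so the numbers were not taken to pair libraries of the sexes. Same-numbered libraries had deviations that correlated at 0.30, -0.05 and 0.20, which cannot decide on pairing with 3 libraries per sex. With the replicate number as a block, 6 transporter genes were higher and 3 lower, and 1619 and 1449 over the whole table. Depth limits Slc7a8, Slc7a3, Slc1a3, Slc36a2 and Slc7a4, which had 300, 278, 125, 86 and 73 counts in all.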
